A study of Mus musculus with 7 samples.

Results

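The genes described here encode the protein part of the cytosolic ribosome. They were taken from the deposited gene table by symbol: Rpl or Rps followed by a number, with an optional suffix a, x, y, l, 1 or l1, together with Rpsa, Rplp0, Rplp1 and Rplp2, leaving out the Rps6k kinases and -ps pseudogenes. This gave 81 of 18951 genes, 49 of the large and 32 of the small subunit. Of these, 77 passed the filter on low values (a mean normalized count of at least 10), 46 of the large and 31 of the small subunit. Rpl10l, Rpl30, Rpl34 and Rps27 did not.

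The study compared the transcriptomes of ovulated oocytes lacking Nlrp2, a maternal effect gene of the NLR family, with those of wild type (WT) females. All females were C57BL/6 and 4 weeks old. Cumulus-oocyte complexes came from the oviduct and were stripped of cumulus cells with hyaluronidase, and about 150 oocytes from 3 to 4 mice of 1 genotype made up a pool. There were 3 WT and 4 Nlrp2-null pools, numbered as in the labels, with the null allele described no further in the sources used here. RNA was amplified with oligo d(T) and random primers before sequencing.

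A ribosome is built from a small subunit, which reads the mRNA, and a large subunit, which joins amino acids. Its proteins are made in near equal numbers from many unlinked genes, and most of their mRNAs begin with a run of pyrimidines, the terminal oligopyrimidine or TOP motif, through which mTOR signalling sets their translation. A few members have paralogs whose proteins can take the place of the parent's, several of them known from germ cells. A growing oocyte stores ribosomes for the embryo, and translation and storage of the mRNAs differ between growth and maturation, so an mRNA level is no measure of ribosome number.

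Facts of the whole data set that bear on these genes are few. Between 71073973 and 96330083 reads per pool stood behind the normalized counts. Nlrp2 itself read 15527, 20130 and 16792 normalized counts in WT 1 to 3 and 107, 8.19, 1.96 and 63.8 in null 1 to 4, a log2 fold change of -9.70 (adjusted p = 6.98e-05, limma). The oocyte genes Gdf9, Bmp15, Zp2 and Zp3 were high in every pool, from 9699 (Zp3) to 281693 (Gdf9) normalized counts. The labels' library numbers fall in a lower range (WT 1, WT 2, null 1, null 2) and a higher range (WT 3, null 3, null 4). Nothing in the sources used here says what the ranges stand for. Because fewer cells of a type and less RNA per cell cannot be told apart in bulk samples, every level below is a level per pool.

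The sequences that the paralog results turn on are those of Rps27 and Rpl39 with their paralogs, since each pair has coding sequences of equal length that can be set base against base. They are printed from GENCODE M21 (GRCm38), 5′ to 3′ on the coding strand without the stop codon, with capitals at the bases that differ within a pair. The coding exons lie within chr3:90212728-90213615 on the minus strand (Rps27), chr9:66946175-66949354 on the plus strand (Rps27l), chrX:37082704-37085127 on the minus strand (Rpl39) and chr16:10174310-10174462 on the plus strand (Rpl39l).
Rps27: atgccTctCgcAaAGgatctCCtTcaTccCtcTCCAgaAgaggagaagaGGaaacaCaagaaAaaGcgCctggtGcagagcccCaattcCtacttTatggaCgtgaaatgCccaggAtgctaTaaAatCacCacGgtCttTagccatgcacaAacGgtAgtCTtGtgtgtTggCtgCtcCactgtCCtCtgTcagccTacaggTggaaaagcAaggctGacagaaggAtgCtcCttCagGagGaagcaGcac
Rps27l: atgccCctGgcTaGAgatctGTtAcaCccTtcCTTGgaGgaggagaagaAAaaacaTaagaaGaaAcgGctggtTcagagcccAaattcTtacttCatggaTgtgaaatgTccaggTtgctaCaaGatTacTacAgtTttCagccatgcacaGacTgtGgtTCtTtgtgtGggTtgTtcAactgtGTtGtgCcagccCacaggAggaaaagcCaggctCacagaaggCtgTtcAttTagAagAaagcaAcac
Rpl39: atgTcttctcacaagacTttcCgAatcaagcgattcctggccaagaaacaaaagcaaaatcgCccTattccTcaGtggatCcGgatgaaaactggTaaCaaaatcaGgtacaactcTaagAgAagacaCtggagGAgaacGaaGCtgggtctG
Rpl39l: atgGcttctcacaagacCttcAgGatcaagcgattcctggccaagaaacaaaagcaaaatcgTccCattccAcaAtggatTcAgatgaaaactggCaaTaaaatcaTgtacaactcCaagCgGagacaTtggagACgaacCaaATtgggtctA

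Rps27 and Rps27l differed at 60 of 252 coding bases (76.2% identity), and Rpl39 and Rpl39l at 23 of 153 (85.0%). Rpl36a and Rpl36al differed at 39 of 318 bases (87.7%), and Rpl10 and Rpl10l at 98 of 642 (84.7%). Members also share sequence with pseudogenes: 79 of the 81 members shared at least one stretch of 50 bases with an annotated pseudogene of any type, on either strand. The median member shared 53.3% of its 50-base stretches with transcripts of other genes. The counting of reads with several possible positions was not stated in the sources used here, so the level of a member with a high shared percentage is uncertain.

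The other set of sequences shown is the region around the annotated start of the mRNA, since a TOP motif lies at the start. Windows from 20 bases before to 10 bases after the start are from RefSeq (GRCm38.p6), on the gene's strand, with capitals at the longest run of C and T that reaches the 10 bases on either side of the start. The first 4 are the tested members with the longest runs, and the others are members whose levels are described below because they stood apart. A run that goes past the window is printed only in part, as in Rpl27a (20 bases), Rpl35 (18) and Rpl15 (17). In Rpl4, Rps15a, Rps27l and Rpl39l the whole capitalised run lies before the RefSeq start, outside the mRNA by that start. Rps15a also has a shorter run across that start, tcttccctc, which meets the minimum of 8 bases used below. By GENCODE M21 the gene starts within the run in Rpl4 (chr9:64173375) and Rpl39l (chr16:10170226). The Rps15a gene there starts upstream of its run (chr7:118116188, minus strand), and that of Rps27l after it (chr9:66946086). Whether these mRNAs begin with a TOP motif was not tested.
Rpl7a (chr2:26910787-26910816, plus strand): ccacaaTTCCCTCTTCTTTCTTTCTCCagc
Rpl27a (chr7:109519175-109519204, plus strand): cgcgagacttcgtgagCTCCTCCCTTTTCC
Rpl35 (chr2:39005122-39005151, minus strand): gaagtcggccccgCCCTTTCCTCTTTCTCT
Rpl15 (chr14:18270977-18271006, minus strand): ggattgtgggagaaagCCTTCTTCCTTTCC
Rpl4 (chr9:64173367-64173396, plus strand): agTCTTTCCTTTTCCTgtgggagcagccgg
Rps15a (chr7:118116138-118116167, minus strand): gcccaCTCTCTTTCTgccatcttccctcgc
Rps27l (chr9:66946066-66946095, plus strand): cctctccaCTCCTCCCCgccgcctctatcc
Rpl39l (chr16:10170208-10170237, plus strand): cctagctcccaggCCTTTCCggatttccgg
Rpl7l1 (chr17:46782647-46782676, minus strand): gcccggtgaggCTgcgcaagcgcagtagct

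A run of at least 8 C or T bases within 10 bases of the start, searched on the gene's own strand, was found at 30 of 71 member starts (42.3%, from 60 members with a RefSeq start) against 13.7% of all 32851 starts in the table. The run was 21 bases long in Rpl7a, 14 in Rpl4, 10 in Rps15a and 9 in Rps27l. It was 7 bases in Rpl39l and 2 in Rpl7l1, below the minimum. The search also takes runs that end before the annotated start, so these are not counts of TOP mRNAs. Members with a run had a median log2 fold change of 0.28 (27 tested members) and those without 0.29 (30 tested members), so the fold change described below was of like size in both sets.

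Levels differed widely between members. Per kb of the transcript chosen for each gene, the median member stood at 1166 normalized counts per kb. Such levels, and the order of genes by them, depend on the transcript chosen. Rps15a, with a chosen transcript of 5179 bases of which 390 are coding, stood at 1472 per kb from a mean of 7624 normalized counts. Rpl4 was highest at 14379, followed by Rps27l at 12592, Rpl10 at 7880, Rpl17 at 7730 and Rps24 at 6122. Rpl4 and Rpl17 line the tunnel through which the new protein chain leaves the ribosome, Rpl10 joins the large subunit late in its assembly, and Rps24 is a small subunit protein needed for the maturation of its rRNA. The per kb levels of Rpl4 (13562 to 15353 over the pools) and Rps27l (10664 to 18678) overlapped, so their order was not fixed across pools. Rpl4, Rps15a, Rps27l, Rpl10 and Rpl17 together held between 27.7% (null 4) and 43.6% (WT 2) of all normalized counts of the 81 members.

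**Figure D1:**
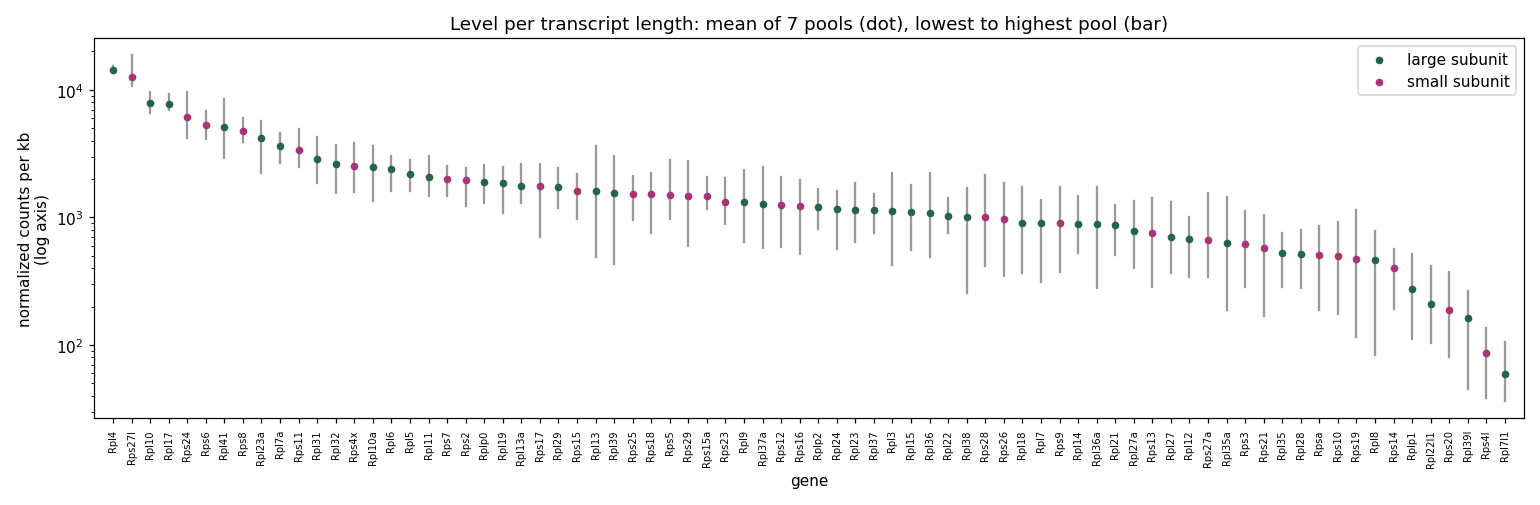
Normalized counts per kb of transcript (log axis) for 76 of the 77 tested members, ordered by level and coloured by subunit, with the dot at the mean of 7 pools and the bar from the lowest to the highest pool. Rpl4 has the highest mean and the shortest bar, and Rpl7l1 (59.0) the lowest mean.

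The lowest tested member was Rpl7l1, a relative of Rpl7, at 59.0 normalized counts per kb. Below the filter, Rpl10l, a retrogene copy of Rpl10 known from male germ cells, held 8.43, 0 and 1.65 normalized counts in the WT pools and 10.8, 10.2, 5.89 and 29.3 in the null pools. Rpl34 held 4 reads over all 7 pools, Rpl30 held 3 and Rps27 held 1. Rpl34, Rpl30 and Rps27 encode proteins of the ribosome, and Rps27 has a paralog, Rps27l. Of 50-base stretches, 98.6% in Rps27, 76.4% in Rpl30 and 50.6% in Rpl34 were shared with other genes, among them 8, 16 and 9 pseudogenes. Rpl10 had 92.1% shared and was among the 3 highest per kb, and across the 77 tested members the shared percentage had a Spearman rho of 0.14 with the mean level. The tested members leave out Rps27, Rpl30 and Rpl34, which failed the filter, so this rho says nothing on them. The part of sharing in the near absence of Rps27, Rpl30 and Rpl34 was not tested.

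None of the 77 tested members passed the test between null and WT. By limma 0 were called higher and 0 lower at a Benjamini-Hochberg adjusted p under 0.05, where 0.0664% of all 15071 tested genes were called. edgeR and DESeq2 on the recovered reads also called 0 members (background 0.0464% and 1.33%). The smallest adjusted p was 0.223 in limma, 0.317 in edgeR and 0.0518 in DESeq2, each for Rps26. At an unadjusted p under 0.05 limma had 7 members higher in null (9.09%, background 5.28%) and 1 lower (1.30%, background 4.93%), edgeR 5 and 1 (background 5.54% and 4.7%), and DESeq2 6 and 1 (background 6.27% and 5.26%).

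The members nevertheless leaned to 1 side. Of 77 estimates 65 were above 0 (84.4%, against 50.7% of all tested genes), with a median log2 fold change of 0.32 against 0.0056 over all tested genes. The large subunit had 41 of 46 above 0 (median 0.30) and the small subunit 24 of 31 (median 0.36). In 69 of the 77 the 95% interval of the fold change included 0. The groups did not overlap for Rps26 alone, higher in all 4 null pools, and for 0 members in the lower direction (background 4.74% and 5.16%).

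**Figure D2:**
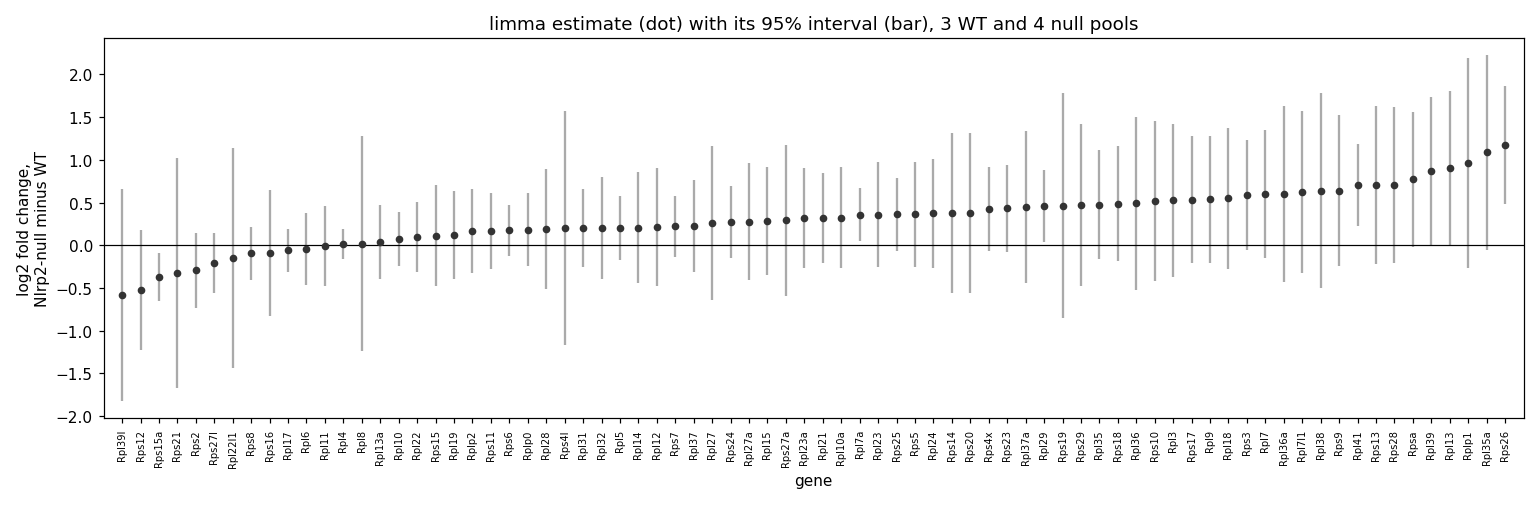
Log2 fold change (Nlrp2-null minus WT, limma on log2 of the normalized count plus 1) of 76 of the 77 tested members, ordered by size, with 95% intervals from 3 WT and 4 null pools. 64 dots lie above 0 and 12 below, and most intervals cross 0.

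The spread between pools of 1 genotype was larger than this lean. Together the 81 members took 0.210%, 0.135% and 0.169% of all normalized counts in WT 1 to 3, and 0.143%, 0.168%, 0.201% and 0.252% in null 1 to 4. That is 0.171% ± 0.0373 (SD, n = 3) in WT and 0.191% ± 0.0468 (SD, n = 4) in null. The ranges overlap, with WT 1 above 3 of the null pools and WT 2 the lowest of all. The highest pool exceeded the lowest by more than 2-fold in 62 of 77 members, with a median of 2.88-fold.

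Pools were ordered alike by most members. WT 2 was the lowest pool in 49 members and null 1 in 19, so these pools held the minimum of 68 of 77. Null 4 was the highest pool in 55 members, null 3 in 11 and WT 1 in 6. WT 1 lay above null 1 in 73 members and above null 2 in 69. Without WT 1 the median log2 fold change was 0.56 and 26 members were higher at an unadjusted p under 0.05 (background 6.18%), and without null 1 the median was 0.49, also with 26 members (background 6.41%). Without WT 2 the median was 0.06, and without null 4 it was 0.13. Leaving out null 3 and null 4 together, an alternative chosen after seeing the data, gave -0.06 with 31 members above 0.

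The library-number ranges gave opposite signs. Within the lower range the null mean of the summed share differed from that of WT by -0.0167 percentage points, and within the higher range, with a lone WT pool, it was 0.0572 above. With the range as a covariate in limma the median was 0.24, and 64 of 77 members were above 0.

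Markers of the cumulus and granulosa, the somatic layers around the oocyte, were on average low and high in the same pools as the members. The mean log2 level of the 36 tested markers was 9.48, 8.10 and 8.49 in WT 1 to 3 and 8.74, 9.003, 9.58 and 9.85 in null 1 to 4, and 31 of the 36 had an estimate above 0 (median 0.46). The summed level of the marker list ran from 91670 to 128827 normalized counts in WT and from 122221 to 140455 in null. This sum was lowest in WT 3, not in WT 2 (105609), and null 1 (129057) was slightly above WT 1. Cyp19a1, the aromatase of granulosa cells, did not share the order of the members, with its lowest level in null 4 (3431) and its highest in null 1 (5248). Fshr (130) and Ptx3 (29.4) were lowest in null 3, though highest in null 4 (364 and 1493). Has2 in null 3 (75.5) was close to its lowest level, in WT 2 (70.3), and was highest in null 4. Inha and Tnfaip6 were lowest in WT 2 and highest in null 4. Cyp11a1 was lowest in WT 2 and highest in null 3, and Foxl2 lowest in null 1 and highest in null 4. Of 10 defining markers, 8 (Foxl2, Fshr, Cyp11a1, Cyp19a1, Inha, Has2, Ptx3 and Tnfaip6) were above 0 in every pool, while Amh and Amhr2 were at 0 in some. With that marker mean added to the limma fit as a covariate, the median log2 fold change of the members was -0.18, and 21 of 77 were above 0. All 12 members with an estimate below 0 stayed below 0 in that fit, and 21 of the 65 others stayed above. Oviduct epithelium markers, of which 6 of 13 were at 0 in some pool, had 9 of 11 tested above 0 and 0 called by limma (median 1.54, and 0.22 without null 3 and null 4), with a summed level of 515 to 650 normalized counts in WT and 767 to 3283 in null. Leukocyte markers had 4 of 8 above 0, with a summed level of 1019 to 1898 in WT and 1035 to 4122 in null. The part of RNA from these cells in the level of each member was not tested.

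**Figure D3:**
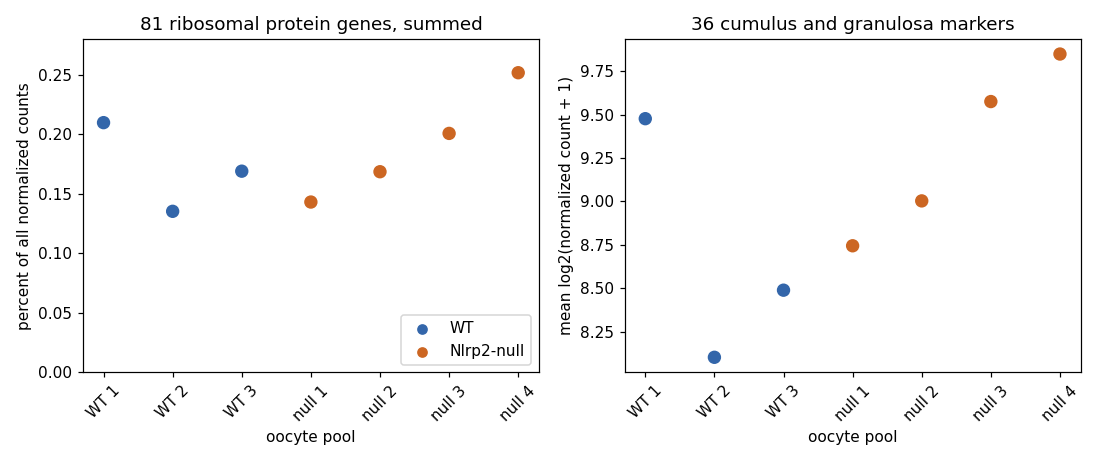
Left, summed share of the 81 members in percent of all normalized counts in each of the 7 pools; right, mean log2 level of the 36 tested cumulus and granulosa markers in the same pools. In both panels WT 2 is the lowest and null 4 the highest pool, and WT 1 is above null 1 and null 2.

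Members followed each other closely over the 7 pools. The correlation of a member's log2 level with the mean of the other tested members had a median of 0.905, and it was over 0.9 in 39 and under 0.5 in 8 of 77. These correlations are descriptions over 7 pools, with 1 scaling shared by all genes of a pool. Members with a high level varied less: the Spearman rho between mean level and SD over pools was -0.78 across members, which are not independent replicates.

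**Figure D4:**
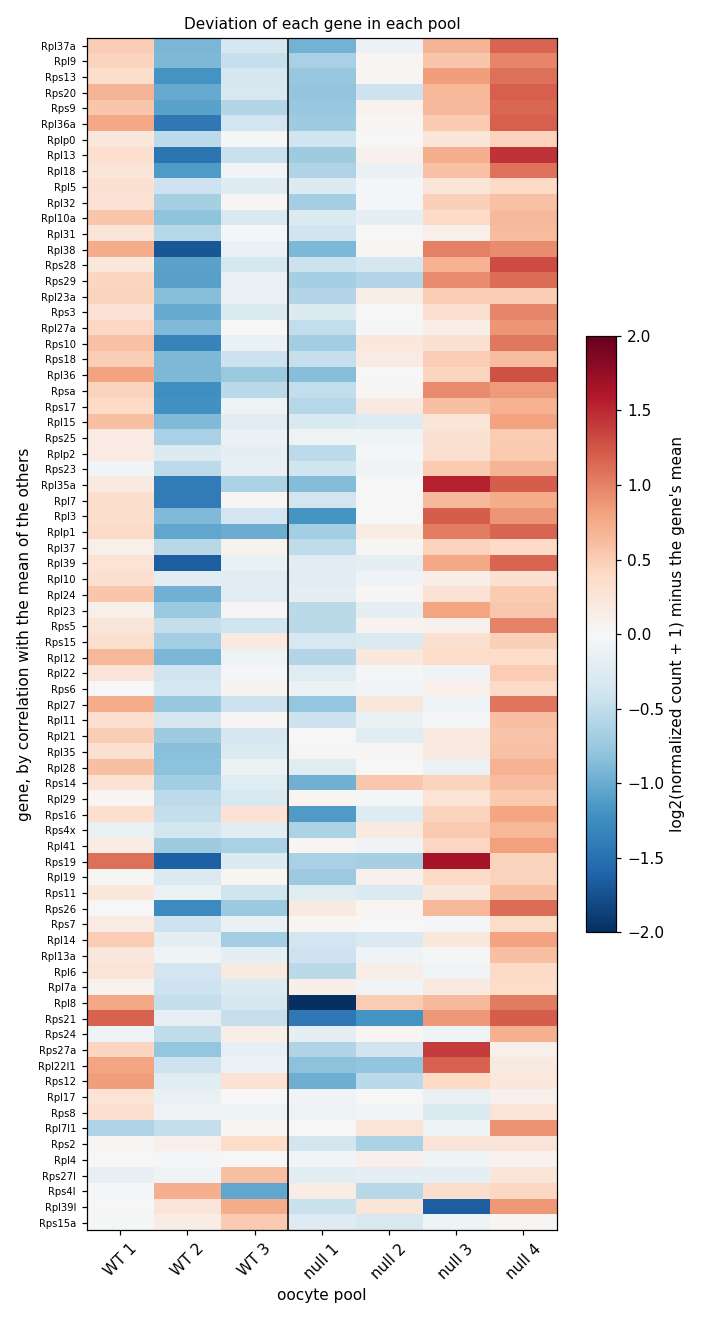
Deviation of log2(normalized count + 1) from the gene's own mean in each pool for 76 of the 77 tested members, ordered from the highest to the lowest correlation with the mean of the others; red is above and blue below the mean, and the colours end at 2. Most genes are blue in WT 2 and null 1 and red in WT 1, null 3 and null 4, and Rps15a, Rpl39l, Rps4l, Rps27l and Rpl4 at the bottom do not share this order.

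The members that went against the group were led by Rps15a, a small subunit protein (gene at chr7:118104372-118116188, minus strand). It held 7265, 8348 and 10816 normalized counts in WT 1 to 3 and 6267, 6007, 7029 and 7638 in null 1 to 4. Null 1, null 2 and null 3 were below every WT pool, and null 4 was above WT 1. The log2 fold change was -0.37 ± 0.13 (SE, adjusted p = 0.361, limma), the smallest p of any member in the lower direction. Its correlation with the other members was -0.11, and its estimate in the fit with the cumulus covariate was also -0.37, while it was -0.22 without WT 3. Of its 50-base stretches 6.37% were shared with other genes, over a chosen transcript of 5179 bases with 390 coding bases. The sharing genes numbered 64, with 9 pseudogenes among them, so the low percentage does not make the level of Rps15a certain. Its pseudogene Rps15a-ps4, outside the rule, held 115, 128 and 132 normalized counts in WT and 61.8, 72.7, 90.3 and 79.5 in null (-0.72 ± 0.50 SE, adjusted p = 0.670, limma).

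Rpl4 (chr9:64173375-64178666, plus strand) hardly varied. It held 22037, 21792 and 22025 normalized counts in WT and 21179, 23613, 20859 and 23299 in null, a 1.13-fold range. The SD over pools was 0.066 on the log2 scale, against a median of 0.54 over the tested members, and the log2 fold change was 0.02 ± 0.08 (SE, adjusted p = 0.965, limma). Its share of the members' counts therefore ran from 12.3% in null 4 to 20.4% in WT 2. Exons of Rpl4 overlap those of Snord16a and Gm22455 on the same strand in the annotation, and the sources used here do not say whether their reads were kept apart.

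Rps27l, the paralog of Rps27 known as a p53 target (chr9:66946086-66949516, plus strand), held 5517, 5784 and 9320 normalized counts in WT and 5321, 5439, 5355 and 7246 in null. WT 3 and null 4 stood above the other 5 pools, which lay close together. The log2 fold change was -0.21 ± 0.17 (SE, adjusted p = 0.710, limma), it was 0.04 without WT 3, and the correlation with the other members was 0.10. Rps2 and Rps12, small subunit proteins, also had estimates below 0, -0.29 ± 0.21 and -0.53 ± 0.33 (SE, adjusted p = 0.676 and 0.629, limma). Rps2 held 1937, 2044 and 2438 in WT and 1466, 1220, 2259 and 2262 in null, so the groups overlap. For Rps12 the WT pools held 1209, 577 and 831 and the null pools 342, 467, 896 and 785, which also overlap.

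In the other direction Rps26, a small subunit protein that contacts the mRNA at the exit of its channel (chr10:128624534-128626747, minus strand), had the smallest p. It held 586, 239 and 345 normalized counts in WT 1 to 3 and 658, 596, 923 and 1256 in null 1 to 4. Every null pool was above every WT pool, null 2 by little over WT 1. The log2 fold change was 1.17 ± 0.33 (SE, adjusted p = 0.223, limma), which does not pass. It was 0.63 in the fit with the cumulus covariate and 0.78 without null 3 and null 4.

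Rpl41, which encodes the smallest ribosomal protein, held 2324, 1284 and 1337 normalized counts in WT and 2161, 2001, 2782 and 3682 in null. WT 1 lay above null 1 and null 2, so the groups overlap. The log2 fold change was 0.70 ± 0.23 (SE, adjusted p = 0.302, limma). Rpl7a, a large subunit protein, held 3416, 2436 and 2692 in WT and 3533, 3114, 3679 and 4198 in null, 0.36 ± 0.15 (SE, adjusted p = 0.424, limma). Its 81.2% of shared 50-base stretches, spread over 120 pseudogenes, make its level uncertain. Rpl29, also of the large subunit, held 1286, 871 and 1003 in WT and 1280, 1209, 1500 and 1792 in null, 0.46 ± 0.20 (SE, adjusted p = 0.445, limma). In Rpl7a and Rpl29 WT 1 lay among the null pools, so the groups overlap. Rpl39 and Rpl13 were also at an unadjusted p under 0.05, with log2 fold changes of 0.87 and 0.91 and an adjusted p from limma of 0.488 each. In the fit with the cumulus covariate Rpl41 was at 0.29, Rpl7a at 0.17, Rpl29 at 0.20, Rpl39 at 0.10 and Rpl13 at 0.03. Rpl39 was at 0.30 without WT 2 and at 0.28 without null 3 and null 4, and Rpl13 at 0.21 without these 2 pools.

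The widest swings between pools belonged to Rps19, Rpl8 and Rps21. Rps19, the gene most often mutated in Diamond-Blackfan anaemia, held 491, 73.2 and 188 normalized counts in WT and 145, 143, 729 and 310 in null, a 9.96-fold range. Rpl8, a protein near the peptidyl transferase centre, held 555, 233 and 257 in WT and 71.5, 461, 511 and 664 in null. Rps21 held 408, 160 and 130 in WT and 66.1, 77.8, 327 and 414 in null. In these genes high and low pools occurred in both genotypes, and their log2 fold changes were 0.47, 0.02 and -0.32 with standard errors of 0.62, 0.59 and 0.63.

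Members grouped by role spread in the same way. Of the stalk proteins, which recruit elongation factors, Rplp0 had a log2 fold change of 0.18, Rplp2 0.16 and Rplp1 0.96, and Rplp1 stood at 275 normalized counts per kb against 1899 for Rplp0 and 1199 for Rplp2. Rpl5 and Rpl11, which bind the 5S rRNA and restrain Mdm2 when assembly fails, had 0.21 and -0.01. Rps6, a phosphorylation target of S6 kinase, had 0.18, and Rps3, at the entry of the mRNA channel, 0.59. Rps27a, made as a fusion with ubiquitin, had 0.29, and Rpsa, also known as the laminin receptor, 0.77. None of these had an adjusted p below 0.503 in limma. The remaining 43 tested members ran from -0.09 to 1.09 (median 0.36), 40 of them above 0, with correlations to the other members from 0.478 to 0.990.

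Paralog use was compared as the log2 ratio of paralog to parent within a pool, which does not depend on the scaling between pools. Over the 35 ways to split the pools, the two-sided exact permutation p can be no smaller than 0.0286. Over 6 pairs a lone changed pair could then reach an adjusted p of 0.171 at best, so the test could not pass a single pair and says nothing on whether paralog use was alike. Of the 6 pairs, 0 had an unadjusted p under 0.05, and every Benjamini-Hochberg adjusted p was 1. Pairs with Rpl3l and Rpl26l1 were not analysed here, and Rpl10l was under the filter, with at most 0.379% of its pair.

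Rpl39l, a paralog of Rpl39 known from male germ cells, took the most variable share. It held 117, 139 and 195 normalized counts in WT and 85.6, 137, 36.3 and 212 in null, while Rpl39, which lies in the wall of the exit tunnel, held 1002, 263 and 754 in WT and 701, 717, 1403 and 1841 in null. The share of Rpl39l in the pair was 10.5%, 34.5% and 20.6% in WT and 10.9%, 16.1%, 2.52% and 10.3% in null, or 21.8% ± 12.1 (SD, n = 3) and 9.95% ± 5.59 (SD, n = 4). WT 1 lay below null 1 and null 2, so the groups overlap. The log2 ratio differed by -1.45 (exact permutation p = 0.171, adjusted 1). The difference was -0.85 without null 3 and -0.92 without WT 2, and it was -0.69 within the lower and -2.23 within the higher library-number range. Rpl39l had no 50-base stretch in common with another gene, and its level did not follow the other members (r = -0.09).

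Rps27l stood in for nearly all counts of its pair, since Rps27 held 1 read in WT 1 and 0 in the other pools. Its share was at least 99.98% in every pool, and with a parent at the floor no fold is given. Its log2 ratio rests on the pseudocount, so the test of this pair is void. Of the 50-base stretches of Rps27 98.6% occur in transcripts of other genes as well, against 22.4% of those of Rps27l.

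Rpl36al, a retrogene copy of Rpl36a that lies outside the symbol rule, took 72.3%, 88.9% and 80.2% of its pair in WT and 85.8%, 78.7%, 71.6% and 64.0% in null. The paralog itself was nearly level, from 1083 to 1645 normalized counts, while Rpl36a ran from 136 to 841. The difference of the log2 ratio was -0.47 (exact permutation p = 0.486).

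Rpl22l1, a paralog known to be repressed by Rpl22, took between 2.69% and 10.1% of its pair, with null 3 highest and null 1 and null 2 lowest (difference -0.25, exact permutation p = 0.686). Rpl7l1 took between 7.19% and 22.3% of its pair (0.03, exact permutation p = 1). Rps4l, which the annotation gives as a transcribed processed pseudogene, took between 1.47% and 5.47% of its pair with Rps4x, an X-linked small subunit gene (-0.23, exact permutation p = 0.657). In these 3 pairs the null pools lay on both sides of WT pools or among them, so the groups overlap.

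**Figure D5:**
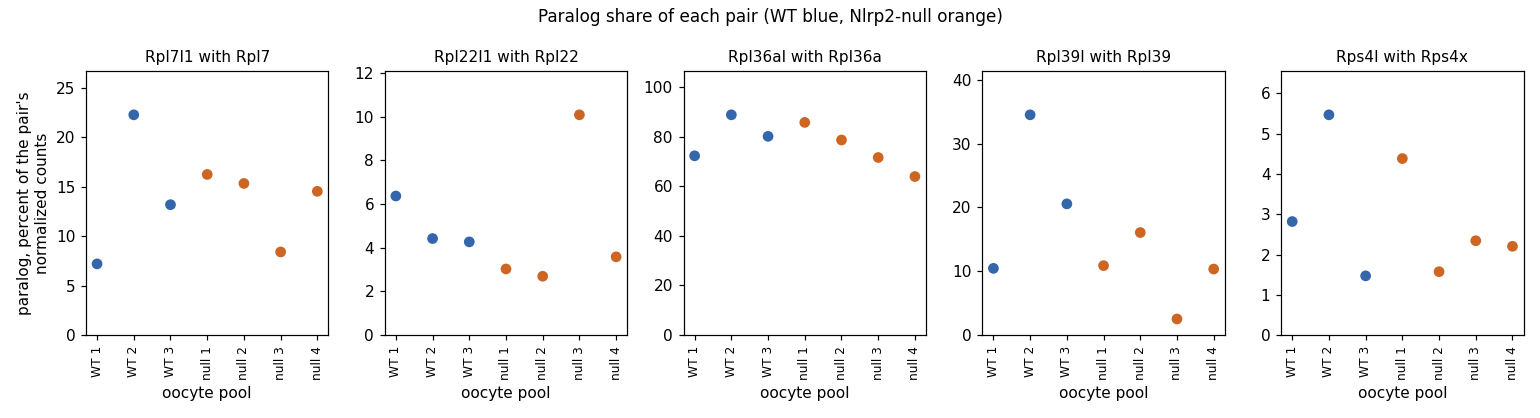
Share of the paralog in the summed normalized counts of its pair, in percent, for 5 pairs in each of 3 WT (blue) and 4 Nlrp2-null (orange) pools; each vertical axis starts at 0. Rpl36al takes most of its pair in every pool, and the share of Rpl39l runs from 2.52% (null 3) to 34.5% (WT 2).

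Lists of genes that make and regulate ribosomes had medians from -0.19 to 0.06, below that of the members. Of 55 tested genes for assembly of the large subunit 15 had an estimate above 0 (median log2 fold change -0.19), and of 50 for the small subunit 12 (median -0.11). limma called 0 in each list, with 1 higher and 10 lower at an unadjusted p under 0.05 in the first and 0 and 4 in the second (background 5.28% higher and 4.93% lower). edgeR called 0, and DESeq2 called 1 in each, near its background of 1.33%: Gnl2, a nucleolar GTPase, and Ltv1, an assembly factor that also counts among the chaperones. Gnl2 held 16375, 19723 and 17986 normalized counts in WT and 15652, 14304, 12076 and 13019 in null, every null pool below every WT pool (-0.39 ± 0.10 SE, adjusted p = 0.211, limma). Ltv1 held 12318, 11369 and 10861 in WT and 9532, 9692, 8171 and 7347 in null, again without overlap, as were 5.16% of all tested genes in this direction (-0.41 ± 0.11 SE, adjusted p = 0.212, limma).

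Among 16 chaperones of single ribosomal proteins 7 were above 0 (median -0.14), and DESeq2 called 2 (background 1.33%), Ltv1 and Pdcd2l, a relative of the Rps2 chaperone Pdcd2. Pdcd2l held 2426, 1739 and 1857 normalized counts in WT and 1407, 1134, 1047 and 1127 in null, all null pools below all WT pools (background 5.16%; -0.76 ± 0.18 SE, adjusted p = 0.137, limma). RNA polymerase I genes had 6 of 15 above 0 (median -0.04). Regulators of TOP mRNAs had 11 of 21 (0.06), and other mRNAs with a TOP motif 7 of 16 (-0.04). Genes tied to ribosome dormancy had 5 of 7 (0.06). limma and edgeR called 0 in each of these 5 lists, and DESeq2 0 in all but the chaperones. Of the 6 tested ribosomal proteins outside the symbol rule, 4 were above 0 (median 0.16).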

How the data were processed

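The authors deposited a gene table of normalized counts, named as DESeq2 output, for 7 pools; its unit is a signal, a count divided by a size factor per pool, per the file headers and names. The submitters' processing notes name the aligners STAR 2.5.0a and TopHat2 2.0.9, the counters featureCounts 1.5.0-p1 and HTSeq, as well as DESeq2 1.22.2, DESeq and HOMER, with builds GRCm38 and mm10. Which tools made the table, its annotation and the use of strand: not given in the sources used here. Every value (100%) was a whole multiple of its pool's step within a tolerance of 0.01, which gave whole reads back. A second deposited table, of assembled transcripts in 6 pools, was not used here.

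Null was compared with WT on log2(normalized count + 1) by limma with a trended variance (version 3.58.1, R 4.3.3) over the 15071 genes with a mean of at least 10, with Benjamini-Hochberg adjustment over all of them and 5 residual degrees of freedom. This log2 scale understates the change of low genes. edgeR 4.0.16 (quasi-likelihood) and DESeq2 1.42.0 on the whole reads were alternatives, and adjusted p values that DESeq2 gave as NA (2080 genes) stayed NA. Other alternatives changed the pseudocount, filter, scaling, variance model or covariates, or left out pools. Paralog ratios, with a pseudocount of 1, were compared by exact permutation (scipy 1.17.1). On simulated data of 14680 genes made for null against WT, limma recovered 23.9% of 1.5-fold, 50.7% of 2-fold and 74.2% of 4-fold changes, and 11 of its 110 calls were false, against 7 of 104 for edgeR and 32 of 140 for DESeq2. The changed genes were drawn without the lowest genes, and each gene was simulated independently of the others. The members varied more over pools than all tested genes (median log2 SD 0.54 against 0.36) and moved together, so these rates need not hold for them.

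All 81 symbols matched GENCODE M21. Levels per kb use the length of the APPRIS principal transcript with a RefSeq mRNA, the shortest where there are several. That transcript is 5179 bases in Rps15a, so its level per kb and its percentage of shared stretches depend on this choice. Without a strand setting, reads of the 19 members with an exon overlap on the opposite strand cannot be told from those of the partner.

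No 2 pools of a group agreed within sampling noise (chi-square per degree of freedom 37.3 to 84.7), so each counted as a replicate. Amplified reads are not independent molecules, and the depth of 71073973 to 96330083 reads left the spread between pools as the limit: over all genes the log2 fold change had a median standard error of 0.277.

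The members, lists and tests were chosen with earlier results of these data known. The genes named are the 5 members with the smallest p in each direction, the 5 highest and 5 lowest per kb, the paralogs with their parents, the 5 that correlate least with the others, the 3 with the largest SD and genes called by DESeq2 in related lists. Another 14, some of them already in that set, were named for their role or p after their values were seen. A tested member is counted but not reported here by name, and is not drawn.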

Additional observations from a re-analysis of the deposited data

Results flagged for a closer look

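Of 31 series of values tested in the 4 null pools, 2 had a pool far from the others by Dixon's ratio at its 95% critical value, where chance gives about 1 in 20. Rps27l in null 4 held 7246 normalized counts, and the gap to the next null pool was 0.939 of the range. The log2 ratio of Rps27l to Rps27 in null 4 was 12.82, with a gap of 0.929 of the range; both come from the same Rps27l value, since Rps27 was at 0 in all null pools. Among WT pools, WT 3 was higher still, at 9320 normalized counts of Rps27l.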

How the results depend on the processing

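Members called stayed at 0 in each direction under every alternative run. The median log2 fold change of the members (0.32) turned to -0.18 with the cumulus covariate and to -0.064 without null 3 and null 4 (added after seeing the data), with 21 and 31 members above 0 in place of 65. Leaving out 1 pool gave medians from 0.06 to 0.56 and 47 to 72 members above 0. Members higher at an unadjusted p under 0.05 numbered 7, and 26 without WT 1 or null 1, 4 with a pseudocount of 0.5, no filter, a mean of at least 100, equal medians or the range covariate, 3 without WT 3, 2 without WT 2, null 3 or null 4, 1 without a trend or with the cumulus covariate, and 0 without null 3 and null 4. The log2 fold change of Rps27l was 0.035 without WT 3. DESeq2 called 1 gene in each assembly list and 2 chaperones.

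The replicate numbers did not pair the pools: same-numbered deviations correlated at -0.163, 0.0192 and -0.0121. With the replicate block the members' median was 0.13, 54 were above 0, 2 were higher at an unadjusted p under 0.05 and 0 were called. The Rpl7l1 ratio (0.03) was -0.025 with the replicate block, -0.0036 with a pseudocount of 10, -0.28 within the higher library-number range and -0.45 to 0.49 leaving out 1 pool. Within the higher range Rpl22l1 was 0.53, Rps4l 0.61 and Rps27l -0.58, and within the lower range Rpl36al was 0.051. Rps27l was -0.16 with a pseudocount of 10. Leaving out 1 pool gave -2.003 (without WT 1) to -0.85 for Rpl39l, -0.70 to 0.26 for Rps4l (0.26 without WT 2) and -0.34 to 0.55 for Rps27l (-0.34 without WT 1). The difference of the summed share (0.0196 percentage points) was -0.0167 within the lower range, and from -0.00057 (without null 4) to 0.0388 leaving out 1 pool. The cause of these changes was not tested.

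All genes called numbered 10 by limma and 200 by DESeq2, 68 with pool quality weights, 6 with equal medians, 1 with the replicate block and 0 without a trend or without null 3 and null 4. Counts of 100 or fewer reads limit Rpl10l, Rpl30, Rpl34 and Rps27.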
